A study of Danio rerio with 4 samples.

Results

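The cells described here were the non-cycling venous and lymphatic endothelial cells (ECs) of the zebrafish trunk at 26 h post-fertilization. A barcode, which stands for 1 droplet and usually 1 cell, was kept when it held at least 200 detected genes and at most 35000 unique molecular identifiers (UMIs, each counting 1 captured RNA molecule). A kept barcode was called venous when it held a UMI of cdh5 (VE-cadherin, the adherens junction protein of all ECs) and of at least 4 of the 5 genes stab1, stab2, lyve1b, mrc1a and dab2. It also had to lack UMIs of all but at most 2 of the arterial genes efnb2a, cldn5b, cxcr4a, tbx20 and gja5b. Fewer than 3 UMIs were allowed for esm1, apln and hlx1 together (genes of sprouting tips), for mfap4 (macrophages) and for mrc1b, and none for myb (blood progenitors) or for the mitotic genes top2a, cenpf, aspm and ube2c. The rule took 11757 of 42951 kept barcodes, out of 43568 barcodes in all.

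The data were single-cell RNA-seq of sorted GFP+ cells from dissected trunk tissue that contained the aorta-gonad-mesonephros region of Tg(kdrl:GFP) zn1 embryos, in which the kdrl promoter drives GFP in ECs and in blood cells newly made from them. There were 4 libraries, each from pooled embryos, and all carried the transgene. The WT library had no further change. The miR-128 mutant library came from embryos lacking both genes of the microRNA miR-128, a small RNA that lowers its target transcripts. The libraries called csnk1a1 g3UTR and jag1b g3UTR came from transgenic embryos injected as zygotes with Cas9 and a guide RNA against the miR-128 binding site in the csnk1a1 or the jag1b 3′ untranslated region, and the alleles that the sequenced cells carried were not measured here. Wherever 4 values are listed, they stand in the order in which these libraries were just introduced, WT first and jag1b g3UTR last, and 3 values leave out WT. With 1 library per genotype no difference between genotypes could be tested. Values of genotypes are given with 95% intervals that cover counting error only, while cell types within libraries were compared over the 4 libraries.

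Veins and arteries take on different identities soon after ECs form. Vein identity is tied to the nuclear receptors Nr2f2 and Nr2f1 and to the receptor EphB4, and artery identity to Notch signalling. Lymphatic ECs leave the vein under Vegfc signalling through its receptor Flt4, with Prox1 as their defining transcription factor. In zebrafish the early vein is also a scavenging endothelium that takes up circulating macromolecules through stabilins and mannose receptors and degrades them in lysosomes. Of the genes in the rule, stab1 and stab2 encode stabilins, lyve1b a hyaluronan receptor homologue, mrc1a a mannose receptor and dab2 an adaptor for clathrin-mediated uptake.

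The venous cells numbered 3530 in the WT library, 3082 in that of the miR-128 mutant, 2259 for csnk1a1 g3UTR and 2886 for jag1b g3UTR. Library totals ranged from 69980329 to 144258953 UMIs, and the venous cells contributed between 15935794 and 35904241 of them. Depth differed between the pairs of libraries made with the same Cell Ranger version: the median venous cell held 10015.5 and 9018 UMIs in WT and miR-128 mutant embryos, against 6983 and 5546.5 in the g3UTR libraries. The median mitochondrial share of a venous cell was 1.50%, 1.47%, 0.830% and 1.08%. Pairs of libraries shared between 26 and 55 barcodes, of which at most 3 were venous in both.

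The venous share of kept barcodes was 28.0% for WT (exact 95% interval 27.2 to 28.8) and 32.1% for the miR-128 mutant (31.2 to 33.0). It was 24.3% for csnk1a1 g3UTR (23.4 to 25.2) and 25.3% for jag1b g3UTR (24.5 to 26.1). Because the rule counts detected genes, a shallow cell can fail it for want of UMIs. When every barcode was first thinned at random to 2500 UMIs and the rule applied afterwards, leaving out 1091, 621, 933 and 2216 shallower barcodes, the shares were 30.9%, 30.4%, 28.2% and 32.1%. The jag1b g3UTR share then lay above the WT share and the miR-128 mutant share no longer did, so only csnk1a1 g3UTR kept its place relative to WT, with a ratio of 0.869 (0.824 to 0.917) at full depth and 0.911 (0.865 to 0.960) after thinning. No direction between genotypes is read from the venous share in the miR-128 mutant or jag1b g3UTR. Doublets were limited only by the bound on UMIs, since no doublet caller was run.

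**Figure D1:**
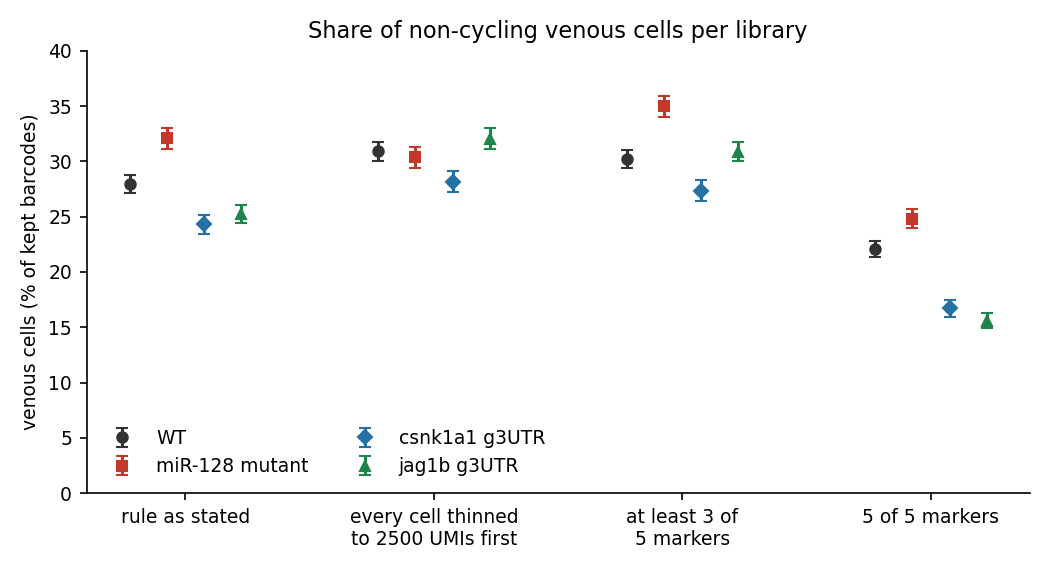
Share of kept barcodes called venous (vertical axis, percent) in each library under 4 forms of the rule, with exact 95% intervals as bars. The miR-128 mutant stood highest at 32.1% under the rule as stated, whereas after thinning to 2500 UMIs jag1b g3UTR stood highest at 32.1%.

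Cells just inside the rule held 4 of the 5 venous genes and numbered 746, 699, 705 and 1103 per library. Cells just outside held 3 of 5 and numbered 282, 277, 283 and 640, with median depths of 5620.5, 6497, 3890 and 2744.5 UMIs. In those excluded cells lyve1b had a UMI in 18.1%, 17.0%, 17.7% and 10.8%, and stab1 in 22.0%, 28.5%, 24.4% and 22.5%. The 2 least abundant rule genes were thus the ones most often missing.

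The genes of the rule were at these levels by construction and are given as a description. As CPM, the UMIs of a gene summed over cells and divided by the total UMIs of the same cells, scaled as usual for sequencing counts, stab2 was at 2167, 1923, 2145 and 3068, and stab1 was the lowest of the 5, between 281 and 405 CPM. Each venous gene was then judged with its own vote taken away, by asking how often it was detected in cells that the other 4 genes select. Without its own vote stab2 had a UMI in 99.1% to 99.5% of cells per library, dab2 in 97.9% to 99.5%, mrc1a in 94.1% to 97.3%, lyve1b in 65.9% to 86.0% and stab1 in 72.3% to 85.1%. In arterial cells, chosen by the mirrored rule, lyve1b had a UMI in 1.08% to 2.08% of cells and mrc1a in 8.24% to 17.2%. By contrast, stab2 was still detected in 45.8% to 63.4% and dab2 in 62.4% to 79.2% of arterial cells, above the erythroid background of 11.1% to 21.7% and 24.0% to 35.0%. The arterial rule itself allowed at most 2 of these 5 genes, so the arterial shares are partly set by it and are a description. Of erythroid barcodes, at most 1 per library held 4 or more of the 5 venous genes. The rule allowed up to 2 arterial genes, and most venous cells held a UMI of cldn5b, at least 75.2% per library. Its level was 716, 756, 609 and 435 CPM in venous cells against 1685 to 2161 CPM in arterial cells. A UMI of efnb2a was seen in 25.2% to 32.4% of venous cells, and of cxcr4a, tbx20 and gja5b in at most 0.822% each. The sprouting gene esm1 had a UMI in 27.9% to 35.6% of venous cells.

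Only a small part of these cells showed a transcript of prox1a, which encodes the lymphatic transcription factor. At full depth prox1a had a UMI in 7.17%, 8.53%, 5.93% and 7.66% of venous cells. After thinning to 2500 UMIs the shares were 1.98% (exact 95% interval 1.54 to 2.51), 2.44% (1.92 to 3.06), 2.41% (1.80 to 3.15) and 4.36% (3.59 to 5.24). In thinned erythroid cells, which should lack it, the shares were 0%, 0%, 0.467% and 0.935%, and in arterial cells 0%, 0%, 0% and 1.30%. The 5 rule genes are shared by veins and lymphatics, so these were not separated, and the cells are called venous below.

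Between venous and arterial cells 7096 genes that the rule did not use were tested. Venous cells were summed per library, and so were 72, 85, 48 and 93 non-cycling arterial cells, which held at least 3 of the 5 arterial and at most 2 of the 5 venous genes. A gene was called changed at an adjusted p under 0.05 and at least 2-fold by edgeR's quasi-likelihood test with Benjamini-Hochberg adjustment and library as a block. By this call 701 genes were higher in venous cells (9.88% of those tested) and 546 were lower (7.69%), and the median log2 fold change of all tested genes was -0.07. The sign was the same in 4 of 4 libraries for 695 of the higher and 454 of the lower genes. Both cell sets were picked by marker genes in the same libraries, so genes that vary with those markers are selected along with them, and the counts describe the 2 sets rather than an independent comparison.

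The leading venous genes held regulators, receptors and trafficking proteins. The nuclear receptor gene nr2f2 was at 126, 138, 196 and 183 CPM in venous cells, against 0, 3.36, 11.5 and 7.02 CPM in arterial cells. Its log2 fold change was 4.97 ± 0.27 (SE, n = 4 libraries; edgeR adjusted p = 7.06e-11), and every arterial value was below the lowest venous one. Its relative nr2f1a was at 76.0, 80.6, 63.2 and 73.2 CPM in venous cells and at 0, 0, 7.66 and 4.68 CPM in arterial cells (log2 fold change 4.92 ± 0.40). The transcription factor gene tfec was at 238, 268, 232 and 262 CPM against 12.8, 23.5, 15.3 and 18.7 CPM (3.64 ± 0.15). These 3 genes were named for large differences of the same sign in 4 of 4 libraries, so the separation of their levels follows largely from that choice.

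Among called genes with at least 50 CPM in the higher cell set and the same sign in 4 of 4 libraries, si:dkey-28n18.9, which has no assigned function here, led towards venous cells and averaged 562 CPM in venous and 14.8 CPM in arterial cells (5.36 ± 0.19). The neuropilin nrp2a, a co-receptor for Vegf and semaphorin ligands, averaged 67.4 against 4.95 CPM (3.88 ± 0.28). The chemokine gene cxcl12b was at 217, 180, 164 and 163 CPM in venous cells and at 10.9, 15.11, 7.66 and 14.0 CPM in arterial cells (3.71 ± 0.25). Genes of membrane traffic stood beside them: rab11bb, a small GTPase of recycling endosomes, averaged 451 against 26.2 CPM, and ap1s3b, a subunit of the clathrin adaptor AP-1, averaged 564 against 40.2 CPM. The gap junction gene cx30.3 averaged 86.3 against 6.19 CPM (3.53 ± 0.25). The other named genes of this side were crygn2, ms4a17a.9, chodl, gnpda1, zgc:110239 and susd1, with log2 fold changes between 3.54 and 4.99.

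**Figure D2:**
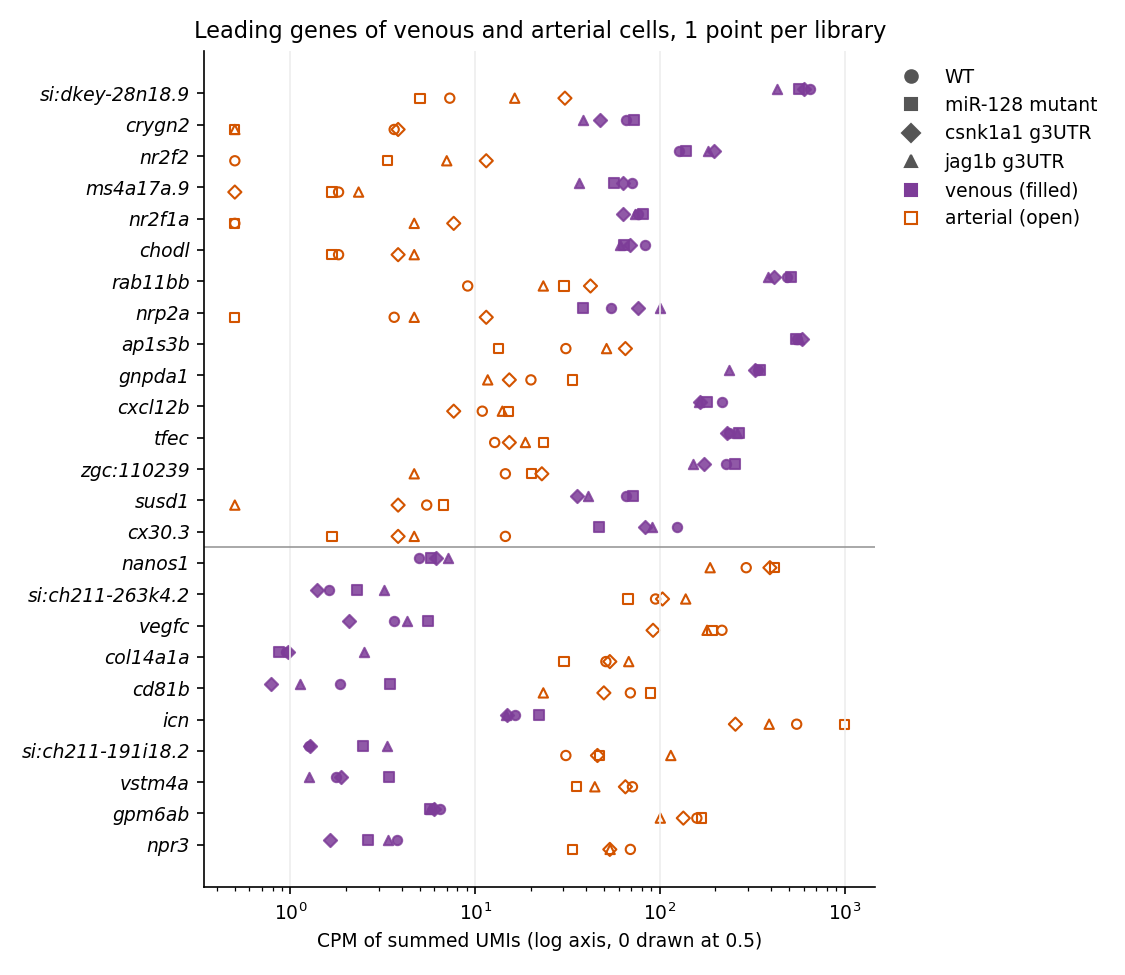
CPM of summed UMIs (horizontal log axis, values of 0 drawn at 0.5) of the 15 genes with the largest log2 fold change towards venous cells and the 10 towards arterial cells, 1 point per library, filled for venous and open for arterial cells. The genes were chosen by size and by the same sign in 4 of 4 libraries. The separation of venous and arterial points follows largely from that choice. Among them were nr2f2 (126 CPM or more against 11.5 CPM or less) and nanos1 (7.09 CPM or less against 187 CPM or more).

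On the arterial side, chosen by the same level and sign, the list was led by nanos1, a translational regulator best known from germ cells, at 4.99, 5.78, 6.13 and 7.09 CPM in venous cells against 293, 416, 394 and 187 CPM in arterial cells (log2 fold change -5.92 ± 0.23), and by the unnamed locus si:ch211-263k4.2 (-5.69 ± 0.26). The ligand gene vegfc was at 3.65, 5.53, 2.06 and 4.27 CPM in venous cells against 217, 191, 91.9 and 180 CPM in arterial cells (-5.65 ± 0.23), while flt4, the gene of its receptor, lay on the other side. The level of flt4 was 408, 391, 370 and 443 CPM in venous cells against 85.6, 70.5, 61.2 and 117 CPM in arterial cells (2.09 ± 0.10). Ligand and receptor transcripts were thus each higher in a different cell set in all 4 libraries. The calcium-binding protein gene icn averaged 17.0 against 550 CPM, and col14a1a, cd81b, si:ch211-191i18.2, vstm4a, gpm6ab and npr3 made up the rest.

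Of 10 tested genes on the list of venous fate, 7 were higher in venous cells, 1 was lower and 2 were not called, with a median log2 fold change of 2.78. Beside those above, ephb4a, the receptor for arterial ephrin, averaged 71.7 against 24.7 CPM (1.33 ± 0.20) and nrp2b 113 against 8.51 CPM (3.47 ± 0.27). The BMP receptor gene bmpr2a averaged 94.8 against 82.1 CPM and was not called, nor was ephb4b. The listed gene on the opposite side was the water channel aqp8a.1, at 317, 326, 273 and 478 CPM in venous cells against 3841, 3001, 3089 and 2475 CPM in arterial cells (-3.35 ± 0.16).

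Of 9 tested genes on the lymphatic list, 5 were higher in venous cells and 2 lower, with a median of 1.27. The higher ones were flt4, the transcription factor genes mafba (522 against 155 CPM) and mafbb (147 against 54.7 CPM), and both prox1 genes. Counts of prox1a were low: 12.7 CPM on average in venous cells against 3.54 CPM in arterial cells, the latter from 1, 0, 2 and 2 UMIs (2.03 ± 0.51; edgeR adjusted p = 0.00347). Its paralogue prox1b was higher, at 40.5 against 13.5 CPM (1.34 ± 0.24). The 2 lower genes were vegfc and thy1, a surface glycoprotein gene at 66.3 against 141 CPM.

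Most lysosomal genes and some uptake genes were higher in venous cells. Of 25 tested lysosomal genes 19 were higher in venous cells, 1 was lower and 5 were not called, with a median log2 fold change of 1.55 beside -0.07 over all tested genes. The cathepsin gene ctsla was the most abundant, at 4195, 3739, 3777 and 3167 CPM in venous cells against 1153, 1022, 899 and 809 CPM in arterial cells (1.77 ± 0.06). Legumain, the lysosomal asparaginyl endopeptidase encoded by lgmn, was at 1186, 1142, 904 and 799 CPM against 62.0, 85.6, 111 and 93.6 CPM (3.41 ± 0.13). The lysosomal membrane protein gene lamp2 averaged 665 against 165 CPM and the acid ceramidase gene asah1b 51.1 against 5.52 CPM. The exception was ctsk, a cathepsin known for breaking down collagen in bone, at 10.8 against 30.0 CPM (-1.74 ± 0.27). Of 19 tested genes of scavenging and uptake, the rule genes set aside, 6 were higher and 1 was lower, with a median of 0.56. The higher ones belonged to clathrin coats and endosomes: clta (1030.2 against 198 CPM) and cltca (571 against 169 CPM) encode clathrin chains, ap2m1a (1221 against 431 CPM) an adaptor subunit, rab5c an early endosome GTPase, and snx5 and snx8a sorting nexins. The lower one was cav1, the coat protein of caveolae, at 103 against 291 CPM (-1.64 ± 0.16).

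**Figure D3:**
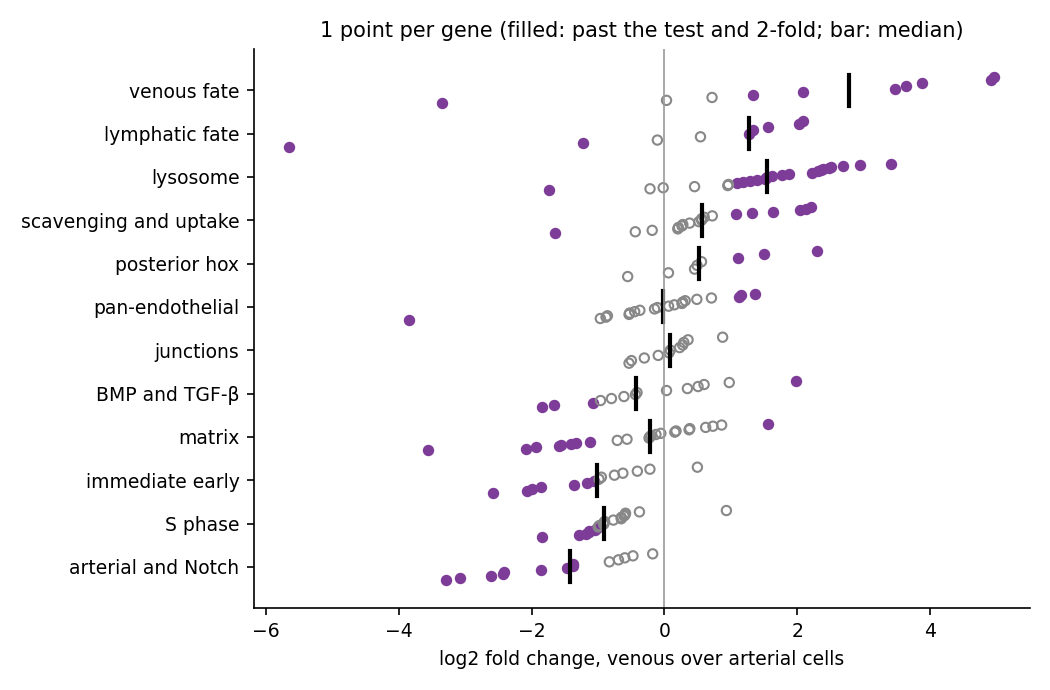
Log2 fold change of venous over arterial cells (horizontal axis) for each tested gene of 12 lists, 1 point per gene, filled where the gene passed both thresholds, with the list median as a black bar. The medians ran from 2.78 for venous fate and 1.55 for lysosomal genes through -0.02 for pan-endothelial genes to -1.42 for arterial and Notch genes.

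Of 14 tested arterial and Notch genes none was higher in venous cells and 9 were lower, with a median log2 fold change of -1.42. The Notch target hey2 was at 7.07, 8.25, 10.1 and 15.4 CPM in venous cells against 72.9, 102, 53.6 and 103 CPM in arterial cells (-3.29 ± 0.21). The receptor genes notch3 (20.6 against 155 CPM) and notch1b (37.8 against 209 CPM) and the ligand genes dlc (log2 fold change -2.43 ± 0.21) and dll4 (111 against 250 CPM) lay on the same side. Venous cells were therefore not without Notch ligand transcripts, and dll4 reached 161 CPM in those of jag1b g3UTR. In the family of Vegf receptors and co-receptors the 9 genes split into 3 higher (flt4, nrp2a, nrp2b), 3 lower (flt1, nrp1a, nrp1b) and 3 not called. The decoy receptor gene flt1 averaged 28.6 against 138 CPM and nrp1a 55.0 against 211 CPM.

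Over all tested genes 9.88% were called higher and 7.69% lower in venous cells, and the counts of the lists below are to be read beside these shares. Of 20 pan-endothelial genes 16 were not called, which is near the share over all genes, and the median was -0.02. The exceptions were plvapb, a diaphragm protein of fenestrae (1332 against 458 CPM), the angiopoietin receptor gene tek (185 against 72.6 CPM) and fli1b (292 against 119 CPM), which were higher, and the claudin gene cldn5a (19.0 against 249 CPM), which was lower. None of 11 junction genes was called (median 0.09). Of 23 matrix genes 8 were lower, among them col4a1 (158 against 413 CPM) and igfbp7 (58.6 against 608 CPM), and 1, hapln1b, was higher (75.7 against 22.3 CPM). In the BMP and TGF-β list of 14, the inhibitory smad7 was higher (55.0 against 12.1 CPM) and id2a, id3 and smad6a were lower, though for id2a the sign held in 3 of 4 libraries. Of 14 immediate early genes 7 were lower in venous cells (median -1.02), among them fosab (72.7 against 256 CPM) and fosb (12.6 against 65.0 CPM). Of 20 S phase genes 7 were lower (median -0.91), although both sets lacked UMIs of the mitotic rule genes. The median arterial cell held 7330.5, 6600, 4825.5 and 4198 UMIs, fewer than the median venous cell in each library. A lack of mitotic UMIs is a weaker bound in shallower cells, and the part of depth was not tested. Of 8 tested posterior hox genes, which mark position along the trunk and tail, 3 were higher: hoxa11a (35.8 against 12.6 CPM), hoxa11b (163 against 70.9 CPM) and hoxc13a (8.97 against 1.80 CPM).

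Of the genes that the study perturbed or that host its microRNA, jag1b was called between the types. The kinase gene csnk1a1 averaged 362 CPM in venous and 322 CPM in arterial cells (log2 fold change 0.00 ± 0.07, not called). The Notch ligand gene jag1b was rare, at 6.33 against 14.3 CPM (-1.47 ± 0.32; edgeR adjusted p = 0.000948), with 12, 11, 2 and 4 arterial UMIs, and lost its call without the WT library (edgeR adjusted p = 0.0518). The host genes r3hdm1 (12.7 against 15.9 CPM) and arpp21 (11.6 against 13.8 CPM) were not called. Of the 17 tested genes on the list drawn from the study, none was higher in venous cells and 3 were lower.

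Markers of other cell types moved with this comparison too. Of 9 tested muscle genes 8 were lower in venous cells, and the summed muscle list of 12 genes, none of them at 0 in venous cells, ranged from 118 to 666 CPM in venous and from 52.8 to 7350 CPM in arterial cells. The highest arterial levels came from few cells: in jag1b g3UTR 1 arterial barcode held 1091 of 1106 actc1b UMIs, and in csnk1a1 g3UTR 1 barcode held all 243 of myl13. Of 4 tested epidermal genes 3 were lower, with the list of 10 genes at 1839 to 2982 CPM in venous and 2335 to 6447 CPM in arterial cells. Of 5 tested erythroid genes 2 were higher, with the list of 10 at 76.6 to 1861 CPM in venous and 38.6 to 310 CPM in arterial cells, and up to 6 of them at 0 in arterial cells. Of 13 macrophage markers 1 was tested, the amino acid transporter gene slc7a7, and it was higher, at 16.4, 14.6, 14.8 and 11.2 CPM in venous cells with no UMI in arterial cells. With no arterial UMI it passed the level filter through other cell sets only. Its call was thus largely set by the filter and says nothing of the other markers on the list. That list summed to 25.7 to 29.0 CPM in venous and 3.83 to 15.11 CPM in arterial cells, with 2 to 5 and 9 to 12 genes at 0. Of 2 tested notochord genes 1 was lower, cav1, the caveolar gene that is also on the uptake list above. The notochord list of 8, cav1 among them, was at 116 to 199 CPM in venous and 170 to 468 CPM in arterial cells. Because it holds cav1, this sum does not by itself show notochord RNA. The part of these lists in the results was not tested. The counts were 698 to 769 higher and 518 to 558 lower genes when any 1 library was left out.

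The same rule with 1 or more mitotic UMIs gave cycling venous cells, 619, 322, 407 and 649 per library. They made up 14.9%, 9.46%, 15.3% and 18.4% of the cells of both kinds at full depth, and 8.47%, 5.61%, 9.98% and 12.0% after thinning. The order of the libraries was the same at both depths. Against cycling cells, 3 of 7096 genes were higher in non-cycling cells (0.0423%) and 223 were lower (3.14%). The lower genes included those of mitosis, which the rule used indirectly: cdk1 averaged 1.54 against 122 CPM (log2 fold change -6.44 ± 0.19), and all 19 tested G2/M genes were lower. Splitting the cells by mitotic UMIs largely set this outcome. The G2/M count, like the S phase count that follows, is therefore a description, and both are part of the 223. Of 20 tested S phase genes 11 were lower, among them the ribonucleotide reductase subunit gene rrm2 (21.1 against 164 CPM) and the replication clamp gene pcna (78.0 against 298 CPM).

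Few genes of the endothelial lists were called between cycling and non-cycling cells, as was so over all tested genes (0.0423% higher and 3.14% lower). None of 25 lysosomal and none of 19 uptake genes reached 2-fold, but 16 and 6 passed the adjusted p, all of them higher in non-cycling cells, with list medians of 0.30 and 0.11 beside 0.03 for all genes. Of all 7096 tested genes 2225 passed the adjusted p at any size and in either direction, and the uptake count was near that share. The lysosomal list summed to 10057, 9222, 8722 and 7568 CPM in non-cycling against 7754, 7107, 6765 and 5738 CPM in cycling cells. Of 10 venous fate genes 1 was called, aqp8a.1, at 317, 326, 273 and 478 CPM in non-cycling against 807, 778, 457 and 822 CPM in cycling cells (-1.02 ± 0.14). Of 9 lymphatic genes 1 was, vegfc, at 3.88 against 8.20 CPM (-1.09 ± 0.24). In the posterior hox list hoxc13a (8.97 against 35.3 CPM) and hoxc12b (22.3 against 49.4 CPM) were lower in non-cycling cells. The 3 higher genes, tnnc1b, tnni4b.2 and tpm2, all encode muscle proteins, and leaving out jag1b g3UTR raised their number to 9. Erythroid genes differed the other way: all 5 tested were lower in non-cycling cells, with hbae3 at 19.6, 64.1, 541 and 328 CPM against 695, 433, 3056 and 3837 CPM. The erythroid list summed to 76.6 to 1861 CPM in non-cycling and 2215 to 12344 CPM in cycling cells with no gene at 0 in either, and its part in the comparison was not tested.

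Cells with a prox1a UMI after thinning numbered 67, 73, 51 and 108. They were compared with the other venous cells at the same depth. Those others include cells whose prox1a UMI was lost in thinning, since 7.17%, 8.53%, 5.93% and 7.66% of venous cells held 1 or more at full depth. Of 6888 tested genes, 3 were higher with prox1a (0.0436%) and 11 were lower (0.16%), while 454 had an unadjusted p under 0.05 in edgeR's test. DESeq2 called 0 higher and 3 lower. None of the 7 other lymphatic genes tested was called: flt4 averaged 431 CPM with and 408 CPM without prox1a (log2 fold change 0.05 ± 0.09), mafba 570 against 519 CPM (0.10 ± 0.08) and mafbb 182 against 144 CPM. None of 25 lysosomal or 19 uptake genes was called either. With 0.0436% and 0.16% called over all tested genes, none in lists this short is near those shares and says nothing particular about them. In simulated data of this design 43% of genes changed 2-fold and 78% of those changed 4-fold passed the adjusted p, so real differences may have been missed. The simulated spread was set beforehand, so these shares set no limit of detection for the real data. There 29 genes passed the adjusted p at any size, the 3 and 11 called among them.

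The genes that were lower with prox1a included both aquaporins of the vessel lists. The water channel aqp1a.1 was at 472, 121, 471 and 259 CPM with prox1a against 813, 493, 901 and 871 CPM without (-1.34 ± 0.11; edgeR adjusted p = 4.89e-13). The level of aqp8a.1 was 71.6, 76.7, 212 and 222 CPM against 333, 321, 265 and 490 CPM (-1.35 ± 0.15), a call that DESeq2 did not make (DESeq2 adjusted p = 0.162). The lysosomal thiol reductase gene ifi30, singled out after its values were seen, was at 334, 274, 541 and 263 CPM against 714, 654, 1059.7 and 511 CPM (-1.09 ± 0.09). All 3 were lower in 4 of 4 libraries. The apolipoprotein gene apoc1 was at 5.97, 21.9, 47.1 and 25.9 CPM against 73.5, 75.2, 57.5 and 141 CPM (-2.00 ± 0.30), and was no longer called on full-depth sums of the same cells (edgeR adjusted p = 0.0580). Also lower were lyz, hbae3, hbbe1.1 and myh9a. Of these lyz is a neutrophil gene and hbae3 and hbbe1.1 are erythroid. All 4 tested erythroid genes were called lower with prox1a, but WT went the other way for 3 of them, with hbae3 at 23.9 CPM with and 18.9 CPM without prox1a. The list of 10 summed to 131, 32.9, 188 and 296 CPM with prox1a (2 to 6 genes at 0) and 81.1, 172, 1014 and 714 CPM without, and its part in the result was not tested.

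Of the 3 higher genes XLOC_028703, an unnamed locus, was higher in 4 of 4 libraries (44.3 against 13.6 CPM on average). The others rested on few cells: si:ch73-23l24.1 was at 502 CPM in csnk1a1 g3UTR and at most 5.97 CPM elsewhere, and the collagen gene col11a1a was at 345 CPM in that library and at most 18.5 CPM elsewhere. Notochord markers moved with them in the same library: the list of 8 summed to 839 CPM with and 145 CPM without prox1a in csnk1a1 g3UTR, against 85.2 to 170 CPM and 98.1 to 176 CPM in the other libraries, with 3 to 7 genes at 0 with prox1a. None of its 3 tested genes was called (median log2 fold change 1.55), and its part was not tested. Without csnk1a1 g3UTR 1 gene was higher and 7 lower, without the miR-128 mutant 7 were higher, and without jag1b g3UTR 8 were.

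A larger division ran along the posterior hox genes, which give cells their position towards the tail. After thinning, 56.5%, 60.3%, 59.2% and 57.7% of venous cells held a UMI of at least 1 of 14 posterior hox genes. The shares at full depth were 83.2%, 84.3%, 80.4% and 71.5%. Thinned arterial cells gave 21.7%, 21.8%, 44.2% and 24.7%, and erythroid cells, taken as background, 4.76% to 7.01%. Of 6852 genes tested between venous cells with and without such a UMI, 6 were higher with posterior hox (0.0876%) and 32 were lower (0.467%), the sign being the same in 4 of 4 libraries for all 6 and for 22 of the 32.

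The largest difference was in apoc1, at 119, 111, 83.6 and 206 CPM in posterior hox-positive and 11.2, 17.9, 19.0 and 41.3 CPM in negative cells (log2 fold change 2.57 ± 0.11; edgeR adjusted p = 7.19e-13). The positive and negative values did not overlap, in a gene named for having the largest difference. The UMIs of apoc1 came from 9.74% to 12.0% of venous cells per library, and the 10 cells richest in it held 28.0% to 42.9% of them. The level of aqp8a.1 was 429, 416, 343 and 650 CPM in positive against 196, 162, 148 and 243 CPM in negative cells (1.24 ± 0.04; edgeR adjusted p = 1.38e-14). The platelet-derived growth factor gene pdgfaa was at 34.9, 46.6, 27.8 and 31.9 CPM against 15.2, 22.6, 8.33 and 13.4 CPM (1.18 ± 0.12). The collagen gene col5a1 (27.9 against 12.4 CPM), the secreted-protein gene c1qtnf5 (21.2 against 7.68 CPM) and ntd5 (29.0 against 12.8 CPM) completed the list.

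**Figure D4:**
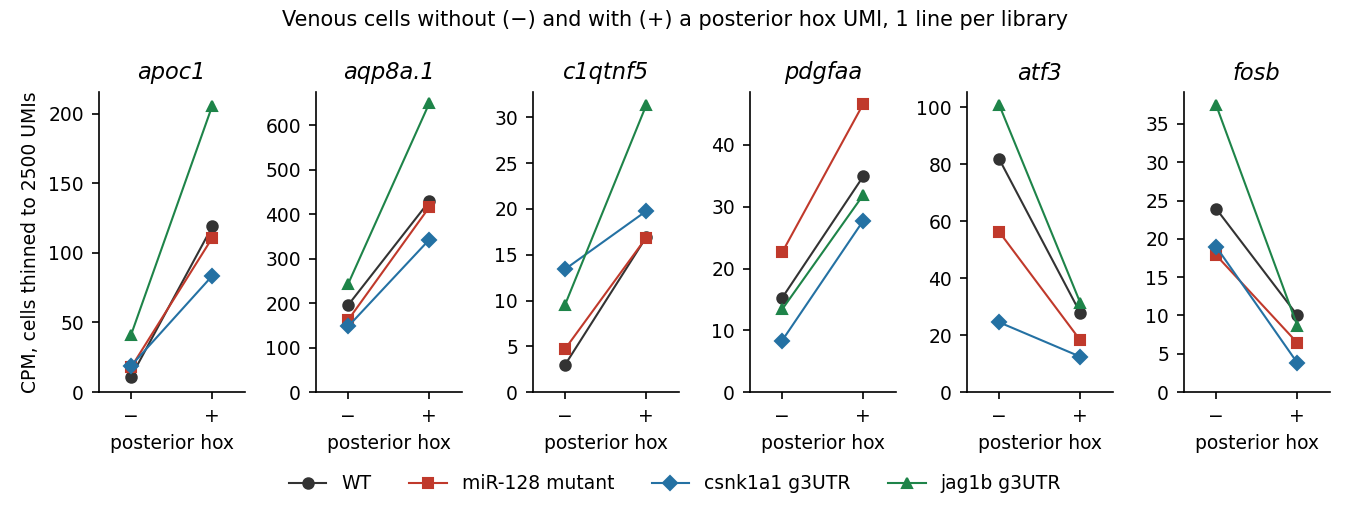
CPM (vertical axes, each from 0) in venous cells without and with a UMI of a posterior hox gene, all thinned to 2500 UMIs, for 6 genes, 1 line per library. All lines rose for apoc1, aqp8a.1, c1qtnf5 and pdgfaa and all fell for atf3 and fosb, with jag1b g3UTR highest among negative cells for atf3 at 101 CPM.

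On the other side the stress-responsive transcription factor gene atf3 was at 27.8, 18.2, 12.4 and 31.4 CPM in positive against 81.9, 56.3, 24.5 and 101 CPM in negative cells (-1.60 ± 0.09). Of 13 immediate early genes tested 3 were lower, atf3, fosb (7.25 against 24.6 CPM) and fosl1a (13.0 against 27.5 CPM), while 11 in all passed the adjusted p and the list median was -0.30. Over all 6852 tested genes 754 passed the adjusted p at any size and in either direction. Of the venous and lymphatic fate genes, apart from aqp8a.1 none of 10 and none of 8 was called, with nr2f2 at 172 against 139 CPM (0.27 ± 0.05, an adjusted p in edgeR of 0.000508 but under 2-fold) and flt4 at 411 against 406 CPM. The more anterior trunk hox genes followed the posterior ones weakly. None of 15 reached 2-fold, but 10 passed the adjusted p, beside the 754 of 6852 over all tested genes. All 10 lay towards positive cells, and the list median was 0.38.

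Other genes of the lower side were the unnamed locus XLOC_044191 and the muscle genes myl13, tnnc1b and myl10. Of 7 tested muscle genes 4 were lower with posterior hox, the list of 12 summing to 115 to 230 CPM in positive and 146 to 553 CPM in negative cells with at most 3 genes at 0, and their part was not tested. DESeq2 did not call myl13 (adjusted p = 0.552) or myl10 (adjusted p = 0.239). It called 21 genes lower in all, and leaving out csnk1a1 g3UTR raised the higher genes to 11. The prox1a and hox divisions crossed: posterior hox was detected in 40.3% (28.5 to 53.0) of prox1a-positive cells in WT against 56.9% (55.2 to 58.6) of prox1a-negative cells. The miR-128 mutant had 61.6% and 60.3%, csnk1a1 g3UTR 52.9% and 59.4%, and jag1b g3UTR 52.8% and 58.0%, so only in WT did the intervals not overlap.

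Levels in the mutant libraries were set against WT for 4686 genes with a mean of at least 20 CPM over the venous sums. All 3 ratios share the WT library, and with 1 library each they describe these libraries and not the genotypes. Past 2-fold in the miR-128 mutant were 22 genes higher (0.469%) and 22 lower (0.469%). For csnk1a1 g3UTR 62 were higher (1.32%) and 20 lower (0.427%), and for jag1b g3UTR 293 were higher (6.25%) and 42 lower (0.896%). The g3UTR libraries were processed with Cell Ranger 6.0.1 and the others with 5.0.0, so genotype, version and depth cannot be told apart there. Scaling mattered as well: the median log2 ratio of all genes was -0.02, 0.07 and 0.12 by totals but 0.00, -0.12 and -0.28 with median-of-ratios factors, under which jag1b g3UTR had 70 higher and 220 lower genes and csnk1a1 g3UTR had 36 of each.

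The targeted genes lay within 2-fold of their WT level in venous cells. The level of csnk1a1 was 347, 377, 363 and 362 CPM. Its ratio to WT was 1.09 (95% counting interval 1.06 to 1.12) for the miR-128 mutant, while csnk1a1 g3UTR had 1.05 (1.02 to 1.08). Under median-of-ratios scaling the csnk1a1 ratio was 0.921 in csnk1a1 g3UTR, so no direction is given for it. The level of jag1b was 5.26, 8.11, 6.74 and 5.21 CPM, and the ratio was 1.54 (1.27 to 1.88) for the miR-128 mutant and 0.989 (0.755 to 1.29) in jag1b g3UTR. The host genes of the deleted microRNA, r3hdm1 and arpp21, were at 11.1 and 7.45 CPM in the miR-128 mutant against 10.2 and 11.1 CPM in WT. The targeted sites are those through which miR-128 would lower these transcripts, so the labels lead to a higher level of each edited gene in its own library. That was not seen for jag1b, whose ratio in jag1b g3UTR was 0.756 under the other scaling, and did not hold under both scalings for csnk1a1. The jag1b level there rested on 83 UMIs. Levels in venous cells therefore give no check of the g3UTR labels in either direction. The study checked the edits by a separate assay. It reported higher levels of each edited gene by quantitative PCR of embryo pools, which is other material and an earlier hour than here.

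By totals, few genes of any kind were past 2-fold, so a short list with none is near the share over all genes. Those shares were 0.469% higher and 0.469% lower in the miR-128 mutant and 1.32% and 0.427% in csnk1a1 g3UTR. In jag1b g3UTR they were 6.25% and 0.896%. Of 10 measured venous fate genes and 7 lymphatic ones none passed 2-fold, and the medians of the log2 ratio ran from 0.04 to 0.47 and from -0.09 to 0.05. The level of nr2f2 was 126 CPM in WT and 138, 196 and 183 CPM in the mutants, and that of flt4 408 CPM and 391, 370 and 443 CPM. That of prox1a, below the level set for the count, was 9.50 CPM in WT against 12.2, 9.72 and 19.5 CPM, a ratio of 2.05 (1.76 to 2.40) in jag1b g3UTR. The share of prox1a-positive cells, which rests on the same UMIs, was highest in jag1b g3UTR after thinning. At full depth it was highest in the miR-128 mutant, at 8.53% against 7.66% in jag1b g3UTR. None of 22 lysosomal genes passed 2-fold (medians -0.14, -0.20 and -0.35), with lgmn at 1186 CPM in WT and 1142, 904 and 799 CPM in the mutants. The 7 measured posterior hox genes had medians of 0.30, 0.30 and 0.20 with none past 2-fold. The S phase list of 12 had medians of -0.32, 0.15 and 0.23. Under median-of-ratios scaling, 4 lysosomal genes and 1 lymphatic gene were past 2-fold lower in jag1b g3UTR, where the prox1a ratio was 1.57 and the medians were 0.08 for venous fate, -0.48 for lymphatic, -0.74 for lysosomal, -0.18 for posterior hox and -0.16 for S phase genes. No direction is therefore given for the last 2 lists in that library. In csnk1a1 g3UTR the medians under median-of-ratios scaling were -0.15 for venous fate and -0.03 for S phase genes, against 0.04 and 0.15 by totals. No direction is given for these lists there either.

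Some Vegf receptor and co-receptor genes were past 2-fold in the g3UTR libraries. None of 9 was past it for the miR-128 mutant, while 2 were higher for csnk1a1 g3UTR and 4 for jag1b g3UTR, with list medians of 0.11, 0.49 and 0.90 on the log2 scale beside -0.02, 0.07 and 0.12 for all genes. Under median-of-ratios scaling 1 was higher for csnk1a1 g3UTR and 3 for jag1b g3UTR, with medians of 0.12, 0.30 and 0.51 beside 0.00, -0.12 and -0.28. The receptor gene kdrl, whose promoter drives the transgene, was at 1829.6, 2053, 5236 and 6144 CPM. Its ratio to WT in arterial cells of the same libraries was 1.43, 2.79 and 2.94 beside 1.12, 2.86 and 3.36 in venous cells, so the difference between libraries was not limited to venous cells. The Notch ligand gene dll4 was at 93.8 CPM in WT and 70.5, 118 and 161 CPM in the mutants, and hey2 at 7.07 CPM and 8.25, 10.1 and 15.4 CPM. The water channel aqp1a.1 was at 826 CPM in WT and 495 CPM in the miR-128 mutant, whose ratio was 0.599 (0.587 to 0.611) in venous and 0.653 in arterial cells, and 0.605 in venous cells under the other scaling. It was at 943 and 864 CPM in the g3UTR libraries, whose ratios were 1.14 and 1.05 by totals but 1.003 and 0.800 under median-of-ratios scaling, so no direction is given for them.

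**Figure D5:**
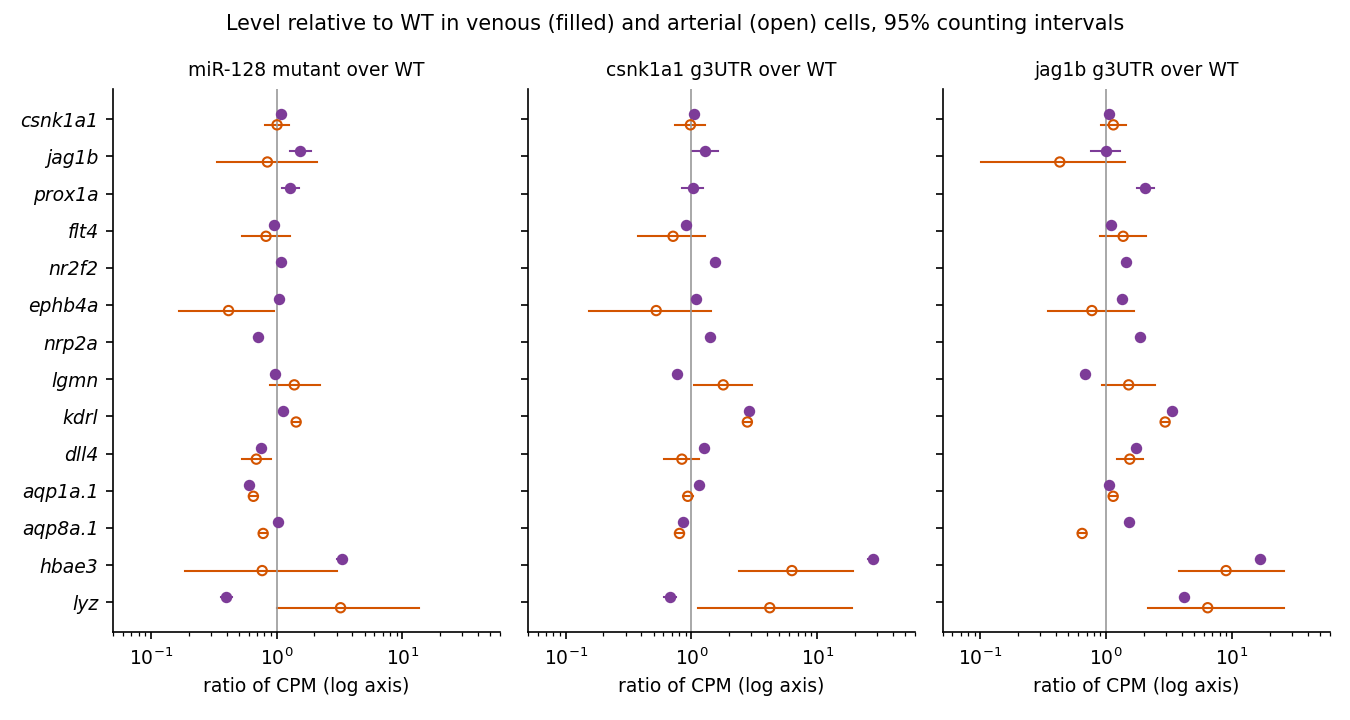
Ratio of CPM to WT (horizontal log axis) in venous cells (filled) and arterial cells (open) for 14 genes in the 3 mutant libraries, with 95% counting intervals as bars, drawn at most to 0.1 and 50. Arterial points with fewer than 3 UMIs in either library are left out. The venous ratio of kdrl was 2.86 for csnk1a1 g3UTR and 3.36 for jag1b g3UTR with arterial ratios of 2.79 and 2.94. In venous cells hbae3 was above WT in all 3 mutant libraries.

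The largest ratios were in genes of other cell types. In the miR-128 mutant they were hbbe1.1 (3.89), hbbe1.3, tnnt3a (3.36), hbae3 (3.28), hbae1.1 and hbbe1.2, of which all but the muscle gene tnnt3a encode haemoglobin chains, close copies among which reads can be split. In csnk1a1 g3UTR they were hbae1.3 (37.8), myl13 (34.3), myl10, hbbe1.1, tnnc1b and hbae3 (27.7), and in jag1b g3UTR tnnc1b (22.6), myl10, myl13, rn7sk, smyhc1 and hbbe1.1. Most of these UMIs came from few cells for myl13 and hbae3 but not for tnnt3a, which had a UMI in 19.8% of miR-128 mutant venous cells with 9.45% of its UMIs in the 10 richest. The 10 richest venous cells held 98.9% and 97.9% of myl13 UMIs in the g3UTR libraries, and 86.2% and 69.6% of hbae3 UMIs, against 2.78% and 2.34% of kdrl UMIs in the 10 cells richest in it. A UMI of hbae3 was nonetheless seen in 37.6% and 33.5% of venous cells of the g3UTR libraries. In WT and the miR-128 mutant it was seen in 13.0% and 12.6% of them. In the miR-128 mutant 1 barcode held 855 of 1843 hbae3 UMIs, and the 10 richest held 72.0%, against 21.1% in WT. When the rule was applied after thinning, the ratio of myl13 was 1.01 for csnk1a1 g3UTR and 2.92 for jag1b g3UTR, and that of hbae3 was 1.87 for the miR-128 mutant and 13.2 for csnk1a1 g3UTR. The erythroid list summed to 76.6, 237, 1861 and 1152 CPM with no gene at 0, and its 4 measured members were past 2-fold in every mutant library. Its part in the ratios was not tested. An exception was rn7sk, a small nuclear RNA, at 23.8, 29.8, 231 and 490 CPM, whose ratio in jag1b g3UTR was 20.6 in venous and 11.7 in arterial cells.

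The smallest ratios were in genes of mixed function, some of which were also low in arterial cells. CABZ01079276.1, a locus with no assigned function here, was at 355, 24.99, 43.6 and 199 CPM, and its ratio in the miR-128 mutant was 0.0704 in venous and 0.146 in arterial cells. The glutathione peroxidase gene gpx4a was at 59.9 CPM in WT and 11.1, 13.3 and 14.3 CPM in the mutants, below WT by more than 4-fold in each. The galectin gene lgals3b was at 143 CPM in WT and 32.0, 58.6 and 63.8 CPM, and si:ch211-114n24.6 at 54.5 CPM and 4.07, 31.7 and 24.4 CPM. In the g3UTR libraries gchfr, a regulator of tetrahydrobiopterin synthesis, was at 27.9 and 14.3 CPM against 111 CPM in WT, and the ornithine decarboxylase gene odc1 at 42.5 and 32.7 CPM against 130 CPM. The other named genes of this end were ablim1b and si:dkey-85k7.7 in the miR-128 mutant, gsta.1 and the linker histone gene histh1l in csnk1a1 g3UTR, and clic2, si:ch73-380l10.2 and cxcl18b in jag1b g3UTR.

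Between the g3UTR libraries, which shared the Cell Ranger version, 8 genes were past 2-fold higher (0.171%) and 37 lower (0.79%) in csnk1a1 g3UTR than in jag1b g3UTR. Median-of-ratios scaling turned this balance to 27 higher and 17 lower. By totals, past it on the higher side were hbae1.3 (ratio 2.50, but 0.681 in cells of at most 20000 UMIs), si:ch211-214p16.2, si:ch211-246m6.4, fhl1b, the heat shock gene hsp90aa1.2 (118 against 53.7 CPM) and nupr1b (422 against 203 CPM). On the lower side were lyz (29.6 against 180 CPM), CABZ01079276.1, the mitochondrial genes mt-atp8 and mt-nd4l, the titin gene ttn.1 and atf3 (16.6 against 57.0 CPM). Of the UMIs of lyz in jag1b g3UTR 75.4% came from 10 cells, and its ratio was 0.985 when the rule was applied after thinning. Of the venous fate, lymphatic and lysosomal genes measured none differed by 2-fold between these libraries, which is near the 0.171% and 0.79% over all genes.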

How the data were processed

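Droplet-based 3′ libraries were sequenced and aligned by the authors with Cell Ranger, version 5.0.0 for WT and the miR-128 mutant and 6.0.1 for both g3UTR libraries per the file headers, against an annotation with corrected 3′ ends; the genome build is not given in the sources used here. Submitters' processing notes also name Seurat. The deposited matrices hold UMI counts per gene and barcode, not normalized, for 36351 genes; symbols used more than once (216) were kept apart by identifier.

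The cell rule, the gene lists and the tests were chosen with earlier results of these data known. UMIs were summed per library and cell set. Sets were compared with edgeR 4.0.16 (R 4.3.3; glmQLFit and glmQLFTest, TMM, library as a block) on genes with a mean of at least 10 CPM, without the 21 genes of the rule (nor prox1a or the 14 posterior hox genes in the split by them), and DESeq2 1.42.0 was an alternative. The prox1a and hox splits used venous cells thinned to 2500 UMIs without replacement, which left 3383, 2987, 2118 and 2475 cells deep enough. Shares carry exact Clopper-Pearson intervals and ratios exact conditional binomial intervals at 95%; all cover counting error only. Python 3.11.15, numpy 2.4.6, scipy 1.17.1 and pandas 2.3.3 were used. Samples were grouped by their titles. The libraries are pools that also differ in genotype, and the block removes differences common to all sets of a library. The p-values between cell sets therefore measure how steady the differences between sets were over these 4 libraries. In the contrasts with arterial and with cycling cells, 1 fit held the venous, cycling venous, arterial and mrc1b-rich sums. Its spread, scaling and level filter thus came from all of these sets.

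Named genes were, among called genes, the 15 with the largest log2 fold change towards venous and the 10 towards arterial cells (same sign in 4 of 4 libraries, at least 50 CPM in the higher type), the 5 largest each way in the other contrasts, the 6 largest and 6 smallest ratios per mutant, list members past the test or most abundant, and csnk1a1, jag1b, r3hdm1 and arpp21; 1 gene that this rule names is not reported here. On simulated counts of the cell type design 71% of 2-fold and 92% of 4-fold changes passed the adjusted p, with 10 false among the 173 genes that passed. No fold threshold was set there, unlike in the calls above. The simulated spread was set beforehand, so these shares set no limit of detection for the real data.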

Additional observations from a re-analysis of the deposited data

How the results depend on the processing

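Venous shares (WT, miR-128 mutant, csnk1a1 g3UTR, jag1b g3UTR) were 30.9%, 30.4%, 28.2% and 32.1% after thinning (ratios to WT of 0.983 in the miR-128 mutant and 1.04 in jag1b g3UTR); 30.2%, 35.0%, 27.4% and 30.9% with at least 3 of 5 markers (jag1b g3UTR ratio 1.02); 22.0%, 24.8%, 16.7% and 15.6% with 5 of 5 (g3UTR ratios 0.758 and 0.708); 32.7%, 37.6%, 30.8% and 30.2% of barcodes with cdh5 (csnk1a1 g3UTR ratio 0.943). With at most 20000 UMIs the first 2 shares were 29.9% and 33.6%, and the jag1b g3UTR ratio was 0.852. Leaving out barcodes over 20% mitochondrial UMIs kept every venous share within its interval.

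Without the filter on low values the calls (higher and lower) were 1571 and 940 for venous against arterial cells, 94 and 1023 against cycling cells, 7 and 36 for prox1a, and 43 and 103 for posterior hox. DESeq2 called 0 and 3 for prox1a, where the log2 fold changes of si:ch73-23l24.1 and col11a1a were -1.15 and -0.49, and 21 lower for posterior hox. Full-depth sums of the same cells, chosen after seeing the data, gave 1 and 26 for prox1a. With 1 library left out, the counts ranged from 2 to 9 higher in non-cycling against cycling cells (9 without jag1b g3UTR), from 1 to 8 higher and 7 to 11 lower for prox1a, and from 6 to 11 higher for posterior hox; the cause was not tested. Arterial cells picked by summed UMIs, also chosen after seeing the data, kept both venous against arterial counts within 1.5 times.

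Median-of-ratios scaling gave 36 and 36 genes past 2-fold for csnk1a1 g3UTR, 70 and 220 for jag1b g3UTR, and 27 and 17 between these 2 libraries. It set csnk1a1 at 0.921 of WT for csnk1a1 g3UTR, and for jag1b g3UTR csnk1a1 at 0.799 and flt4 at 0.829. A mean of at least 5 CPM gave 58 and 75 (miR-128 mutant), 200 and 58 (csnk1a1 g3UTR), 779 and 100 (jag1b g3UTR) and 28 and 122 (between the g3UTR libraries), by its own construction with more genes. The rule applied after thinning gave 13 higher between the g3UTR libraries and set aqp8a.1 at 0.933 and lgmn at 1.01 of WT in the miR-128 mutant. With at most 20000 UMIs the hbae1.3 ratio between the g3UTR libraries was 0.681. No paired analysis was possible because each genotype had 1 library; library was a block between cell types. Promoter motifs were not searched, as no promoter sequence was used here.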

Other observations

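Venous cells that met every other part of the rule but held 3 or more UMIs of mrc1b, another mannose receptor gene, numbered 313, 278, 142 and 134 per library, in the order used above. Their summed posterior hox level was 107, 120, 128 and 108 CPM, against 409, 479, 483 and 442 CPM in the venous cells described above. The trunk hox list summed to 432, 493, 544 and 436 CPM against 822, 842, 1014 and 928 CPM, and the arterial and Notch list to 621, 556, 651 and 762 CPM against 1279, 935, 1505 and 1508 CPM. The lysosomal list was at 12008, 12126, 10464 and 8819 CPM against 10057, 9222, 8722 and 7568 CPM. Each of these 4 lists lay on the same side within each library. So did the venous fate list, at 1126, 1182, 1446 and 1672 CPM against 1461, 1505, 1528 and 1921 CPM. Such sums can rest on 1 abundant member, so they do not measure venous or arterial identity. The venous fate sum was 4071, 3201, 3345 and 2760 CPM in arterial cells. Its member aqp8a.1 alone was at 3841, 3001, 3089 and 2475 CPM there. The arterial and Notch list held aqp1a.1, at 826 CPM in WT venous cells. Which members carried the differences was not tested. The remaining lists are not given here, so the differences are not shown to be particular to the lists named. These cells were set apart after the rule was known, and the differences were not tested.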
